A study of Mus musculus with 2 samples.

Results

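The 6 genes of the C/EBP family (Cebpa, Cebpb, Cebpd, Cebpe, Cebpg and Cebpz) were followed in whole liver of mouse embryos. They were chosen by name and not by a measured value, though earlier results of these data were known. All 6 were found among the 43346 annotated genes of the series. The tissue was healthy B6NCrl liver at embryonic day 13.5, taken from pooled male and female embryos, with no transgene, mutation or treatment stated. Total RNA longer than 200 nt was sequenced in 2 libraries, each made from 10 ng of RNA with added spike-in RNAs. The libraries are 2 biological replicates of 1 group that share 1 donor entry, so an SD over n = 2 gives only the spread between these samples, and no condition could be compared.

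C/EBP proteins are bZIP transcription factors: a basic region contacts DNA, and a leucine zipper beside it joins each protein to a partner, another C/EBP or a different bZIP protein. C/EBP alpha, beta and delta activate liver genes for plasma and metabolic proteins, and C/EBP alpha and epsilon act in turn in granulocyte formation. C/EBP gamma lacks an activation domain and works as a partner of other bZIP proteins such as ATF4. The Cebpz protein shares the name but is not a bZIP protein. It binds CCAAT boxes and belongs to a family of nucleolar proteins of ribosome assembly. Fetal liver holds hepatoblasts and blood-forming cells side by side, so the family meets there in more than 1 lineage.

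The basic region shows how alike the 5 bZIP members are, and how Cebpg and the other 4 differ. A pattern of 9 codons (asparagine, any 2, alanine, valine, any 2, serine, arginine) occurred once in the coding sequence of each of these 5 genes and not in the 1052 codons of Cebpz. Below, 54 bases of coding sequence are given 5′ to 3′ for each gene, from GENCODE M21 transcripts on GRCm38 (mm10). The capitals mark the 27 bases of the pattern. The pattern placed the compared bases, so its presence in the 5 genes is no measure of their likeness.
Cebpa (chr7:35120283-35120336, plus strand): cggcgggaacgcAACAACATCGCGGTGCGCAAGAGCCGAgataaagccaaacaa
Cebpb (chr2:167689703-167689756, plus strand): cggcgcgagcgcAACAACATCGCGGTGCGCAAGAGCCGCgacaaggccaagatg
Cebpd (chr16:15887913-15887966, plus strand): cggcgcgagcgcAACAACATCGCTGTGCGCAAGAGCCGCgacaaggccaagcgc
Cebpe (chr14:54710704-54710757, minus strand): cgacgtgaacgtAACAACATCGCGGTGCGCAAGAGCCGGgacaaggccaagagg
Cebpg (chr7:35050582-35050635, minus strand): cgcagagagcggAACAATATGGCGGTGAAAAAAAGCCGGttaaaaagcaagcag
Among Cebpa, Cebpb, Cebpd and Cebpe, the 6 pairs shared 44 to 50 of the 54 bases, with Cebpb and Cebpd the closest at 50. The 4 pairs with Cebpg shared 34 or 35 bases. Over 62 codons that reach into the zipper, the bases agreed by 71.0% to 76.9% in the first 6 pairs and by 49.5% to 54.3% in the pairs with Cebpg. The basic region lay toward the end of the coding sequence in all but Cebpg, where it lay near the middle, with the 9 codons starting at codon 293 of 359 in Cebpa, 232 of 296 in Cebpb, 214 of 281 in Cebpe and 72 of 150 in Cebpg.

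Expected counts on annotated genes came to 39182457 in replicate 1 and 37432977 in replicate 2. Hepatoblast markers (6 of 6 genes), erythroid markers (5 of 5) and macrophage markers (6 of 6) all reached 1 TPM in both libraries, and Afp, the fetal serum protein, stood at 5630.23 and 6807.18 TPM. TPM is transcript abundance corrected for length and scaled to a fixed sum per library. Of 4 lung genes none exceeded 0.13 TPM, and of 6 fat-cell genes Fabp4 and Pparg alone reached 1 TPM in both. The 6 heart muscle genes summed to 36.8 and 93.1 TPM and were all higher in replicate 2, at a median log2 ratio of 2.24 after TMM scaling, which removes the difference in library size and composition. Their part in the values of the C/EBP genes was not tested. In bulk tissue, fewer cells of a type and less RNA per cell cannot be told apart.

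All 6 members were present at moderate levels, in the order Cebpg, Cebpz, Cebpb, Cebpd, Cebpa and Cebpe in both libraries. The place of Cebpd depends on its gene model, described below. Each of the 6 reached 1 TPM in both libraries, which 28.1% of annotated genes did (12183 of 43346). Among protein-coding genes, to which all 6 members belong, 11194 of 21474 did. Cebpg stood 6.09-fold above Cebpe. Their median was 6.12 TPM in replicate 1 and 5.63 TPM in replicate 2, beside 1.37 and 1.51 TPM over the 21474 protein-coding genes. The 6 ranked between 4616 and 9778 among all annotated genes by mean TPM. With 2 samples of 1 group, no gene can be named as having a pattern like theirs.

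**Figure D1:**
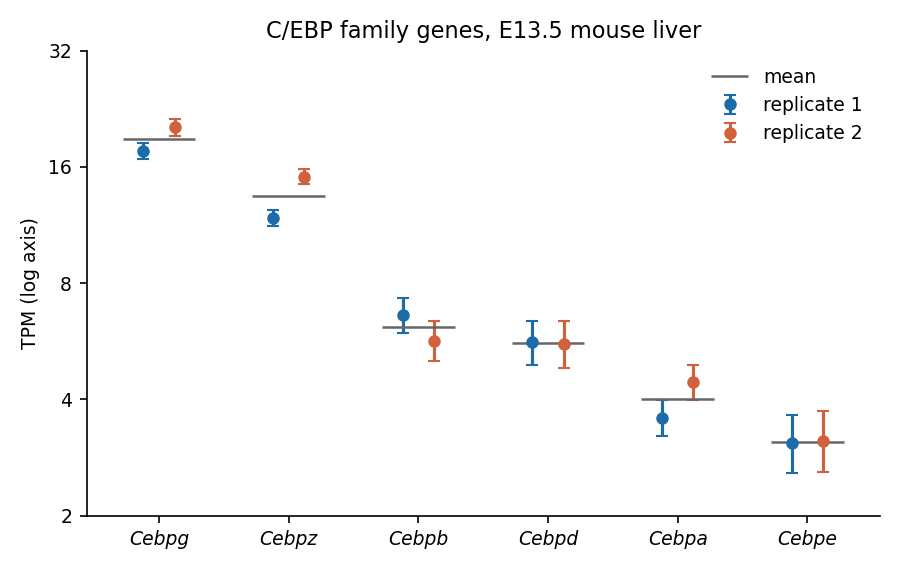
TPM of the 6 C/EBP genes on a log axis in replicates 1 and 2 of embryonic liver. Points are libraries, vertical bars are 95% counting intervals and the short grey lines are means; Cebpg lies highest at 17.58 and 20.26 TPM and Cebpe lowest at 3.08 and 3.12 TPM.

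Cebpg (ENSMUSG00000056216.8, chr7:35046422-35056573, minus strand), the partner without an activation domain, was the most abundant bZIP member. It measured 17.58 TPM in replicate 1 (95% counting interval 16.7 to 18.4) and 20.26 TPM in replicate 2 (19.3 to 21.3), a mean of 18.9 ± 1.90 (SD, n = 2), from 1670 and 1664 expected counts. Replicate 2 was the higher by TPM, while the counts were nearly equal. Among genes whose counts averaged 10 or more, TPM was on the whole higher in replicate 2, by a median of 0.15 on the log2 scale.

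The 5 bZIP members together summed to 36.48 and 39.06 TPM. Cebpg held 48.2% of this sum in replicate 1 and 51.9% in replicate 2, a mean of 50.0% ± 2.60. The other 4 together came to 18.9 and 18.8 TPM, so their sum was nearly equal in the libraries. Shares of the sum were 18.1% and 14.5% for Cebpb, 15.4% and 14.3% for Cebpd, 9.81% and 11.3% for Cebpa, and 8.44% and 7.99% for Cebpe. Cebpb took the smaller share in replicate 2, and Cebpa took the larger one there. All shares depend on the gene model of Cebpd, described below.

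Cebpa (ENSMUSG00000034957.9, chr7:35119293-35121928, plus strand) is needed both for hepatocyte metabolism and for the step into granulocyte-monocyte progenitors. It measured 3.58 TPM in replicate 1 (3.21 to 3.98) and 4.43 TPM in replicate 2 (4.00 to 4.90), a mean of 4.01 ± 0.601, from 344 and 382 counts. Replicate 2 was higher and the counting intervals did not overlap in TPM. After TMM scaling the log2 ratio of replicate 2 over replicate 1 was 0.16 (-0.06 to 0.37), an interval that held 0. Cebpa and Cebpg are neighbours on chromosome 7, with 62.7 kb between them. Cebpg exceeded Cebpa by 2.30 on the log2 TPM scale in replicate 1 and by 2.19 in replicate 2, a mean of 2.24 ± 0.07, or 4.74-fold. This difference between neighbours was thus far larger than the spread between replicates.

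Cebpe (ENSMUSG00000052435.6, chr14:54710360-54712174, minus strand) drives the later steps of granulocyte maturation and is found mainly in myeloid cells. It was the lowest member, at 3.08 TPM (2.58 to 3.65) and 3.12 TPM (2.59 to 3.73), a mean of 3.10 ± 0.0283, from 133 and 121 counts. The libraries were nearly equal. Cebpa, the member of liver and myeloid cells, exceeded myeloid Cebpe by 0.22 in replicate 1 (-0.08 to 0.52) and by 0.51 in replicate 2 (0.21 to 0.81) on the log2 TPM scale. The mean difference of 0.36 ± 0.20 corresponded to 1.28-fold. Cebpa was the higher in both libraries, but in replicate 1 the counting interval held 0, so the order of these neighbours was not settled there at this depth.

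Cebpb (ENSMUSG00000056501.3, chr2:167688915-167690418, plus strand), which acts in the acute-phase response and in stress-induced granulocyte formation, measured 6.62 TPM (5.94 to 7.34) and 5.67 TPM (5.02 to 6.39). Its mean was 6.15 ± 0.672 from 352 and 271 counts, and replicate 1 was the higher. Cebpb was the one member whose gene count carried any uncertainty of read assignment, with a posterior SD of 1.26 and 1.43 counts. Cebpb exceeded Cebpa by 0.89 and 0.36 on the log2 TPM scale, a mean of 0.62 ± 0.38. By expected counts without correction for length, the order of these genes turned, to -0.23, since the Cebpa transcript of 2634 nt is longer than that of Cebpb with 1504 nt.

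Cebpd (ENSMUSG00000071637.4, chr16:15887286-15891031, plus strand), an inducible member that acts early in inflammation and in fat-cell formation, measured 5.62 TPM (4.92 to 6.39) and 5.58 TPM (4.84 to 6.39). The mean was 5.60 ± 0.0283 from 230 and 205 counts, nearly equal in the libraries. Cebpb and Cebpd differed by 0.24 and 0.02 on the log2 TPM scale, and both counting intervals held 0. The level of Cebpd rests on a gene model of 1180 nt in the deposited tables, 31.5% of the 3746 nt that the later GENCODE release M21 gives it. With the longer length its TPM would be 1.67 and 1.65, a lower bound because reads outside the shorter model were not counted. That bound, an alternative chosen after the data were seen, lies below the level of Cebpe.

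Cebpz (ENSMUSG00000024081.8, chr17:78919006-78937066, minus strand) measured 11.82 TPM (11.3 to 12.4) and 15.11 TPM (14.5 to 15.8), a mean of 13.5 ± 2.33, from 1779 and 2043 counts. Replicate 2 was higher and the counting intervals did not overlap. Cebpg exceeded Cebpz by 0.57 and 0.42 on the log2 TPM scale, a mean of 0.50 ± 0.11. Of the 15 pairs of members, the counting interval excluded 0 in both libraries in 13. The exceptions were Cebpa with Cebpe and Cebpb with Cebpd. The order of Cebpd above Cebpa and above Cebpe rests on the Cebpd model of 1180 nt.

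Isoforms could be separated for Cebpg alone, since the deposited tables list 1 transcript for each of the other 5 members. The short transcript Cebpg-201 (890 nt) measured 9.52 and 11.48 TPM, and the long one, Cebpg-202 (4639 nt), measured 8.05 and 8.78 TPM. Cebpg-201 held 54.2% of the Cebpg TPM in replicate 1 and 56.7% in replicate 2, a mean of 55.4% ± 1.75, so the short form led slightly in both. Of the counts it held only 17.8% ± 1.05, because the long form gives more reads per molecule. The posterior SD of the division was 18.1 and 17.1 counts, which is small beside the 285.21 and 308.81 counts given to Cebpg-201. The TPM of Cebpg as a gene rests on this division too, and its counting intervals do not cover it. The later release lists 4 transcripts for Cebpg, 5 for Cebpz and 2 each for Cebpa and Cebpd, and reads of the added ones were not separated.

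Cebpa, Cebpb and Cebpd each consist of 1 exon, Cebpe and Cebpg of 2 and Cebpz of 16 in these transcripts. Cebpa and Cebpb are known for making shorter proteins from internal start codons of the same mRNA, which act differently from the full-length forms. In-frame ATG codons lay at codons 1, 15, 118, 214 and 355 in Cebpa, and at codons 1, 22, 152, 227 and 245 in Cebpb. Since all such forms come from 1 transcript, the libraries hold no information on their proportions.

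Other genes overlap the members, and no source used here says whether counting used strand. The posterior SD of a gene count tells whether reads were divided between entries. It was 0 in both libraries for Cebpz and Cebpd, and 1.26 and 1.43 counts for Cebpb. From which gene the divided reads of Cebpb came was not tested. Cebpz overlaps Cebpzos on the opposite strand by 1301 nt, 171 of them exonic in both. Cebpzos measured 51.59 and 58.08 TPM, above Cebpz in both libraries. Cebpb overlaps Tmem189, an opposite gene at 14.46 and 15.49 TPM, by 908 nt, of which 312 are exonic in both. Cebpd overlaps Spidr, a DNA repair gene at 11.25 and 13.64 TPM, by 1808 nt in release M21, of which 562 are exonic in both. That overlap belongs to the longer M21 model. The counted model of 1180 nt, if it starts with the gene at 15887286, ends before Spidr begins at 15889224. All 3 opposite genes were higher than the member they overlap. Within 5 kb lay also Pepd, a dipeptidase gene at 46.03 and 49.26 TPM beside Cebpg, and Ndufaf7, an assembly factor gene of respiratory complex I at 17.52 and 19.25 TPM, which lies head to head with Cebpz, its start 70 nt from that of Cebpz on the opposite strand. A530013C23Rik beside Cebpb was listed at 0. The non-coding Gm44836, Gm45094, Gm45095 and Gm45096 at Cebpg, and Gm45091, which overlaps the start of Cebpa by 313 nt on the opposite strand, were not measured in the tables used here.

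Within the bZIP superfamily the C/EBP genes stood in the upper and middle ranks. Among 52 bZIP genes ordered by mean TPM, Cebpg was 12th, Cebpb 23rd, Cebpd 24th, Cebpa 28th and Cebpe 32nd. The rank of Cebpd rests on its model of 1180 nt. The top places went to Nfe2, the erythroid globin regulator, at 153.32 and 165.55 TPM, Atf4, the stress regulator that pairs with C/EBP gamma, at 122.68 and 134.49 TPM, and Xbp1, a factor of secretory cells, at 73.78 and 85.55 TPM. Atf4 was therefore well above Cebpg in each library. Of the 47 other bZIP genes, 34 reached 1 TPM in both libraries, 12 stayed below it in both, and their median was 4.07 and 4.83 TPM.

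The neighbours of Cebpg in this order were Creb3l3, a liver-enriched membrane-bound factor (19.86 and 20.01 TPM), Creb3 (18.52 and 19.59), Nfe2l1 (17.61 and 18.26) and Ddit3 (17.15 and 15.37). Ddit3 encodes CHOP, a C/EBP-related protein that pairs with C/EBP members and blocks their usual binding. In replicate 2 Cebpg stood above both Creb3l3 and Creb3, so these neighbours were not ordered beyond the spread. Cebpb and Cebpd stood side by side after Bach1 (5.68 and 7.98 TPM) and Atf6 (5.45 and 7.04), and before Jun (5.80 and 5.27) and Atf5 (4.79 and 4.83). Cebpb was above Bach1 and Atf6 in replicate 1 and below them in replicate 2. Cebpa followed Atf5 and Tef (4.07 and 5.27 TPM) and preceded Hlf (3.18 and 4.68) and Batf (3.73 and 4.12). Tef and Hlf are PAR bZIP genes of the circadian clock output. Batf was above Cebpa in replicate 1 and Hlf was above it in replicate 2, so their order was not settled. Cebpe lay below Batf and Nfil3 (3.21 and 3.85) and above Batf3 (2.82 and 2.32) in both libraries. Batf and Batf3 act in immune cells.

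**Figure D2:**
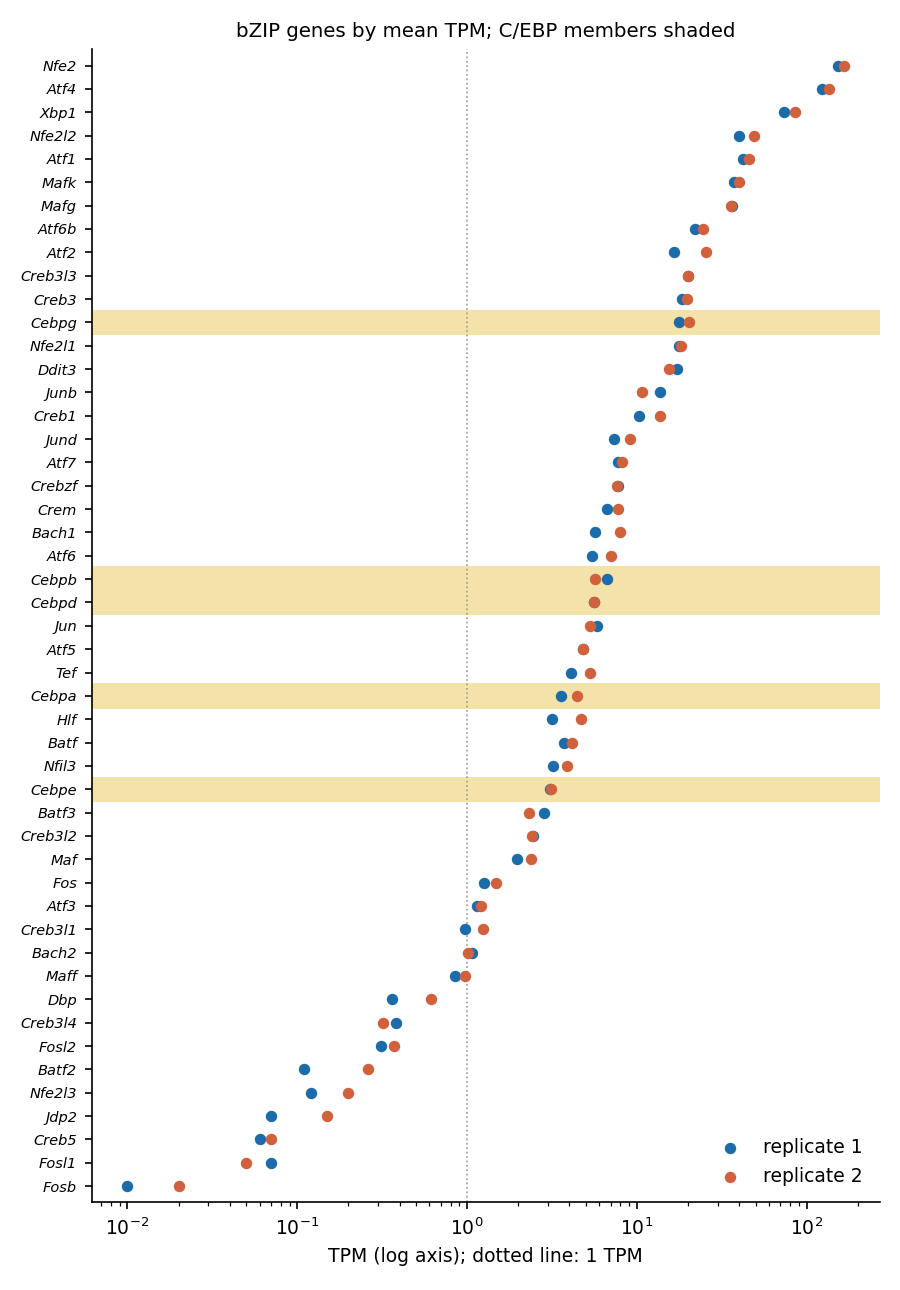
TPM of bZIP genes on a log axis in replicates 1 and 2, ordered by mean, with the 5 C/EBP bZIP genes shaded; Nrl and Mafa, listed at 0, and 1 other gene are left out. Cebpg stands 12th of 52 and the other 4 shaded genes lie between ranks 23 and 32.

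Genes that C/EBP factors are known to act on in liver were followed in 3 lists, which differed in level. Counts of genes at 1 TPM, here and in the later lists, stand beside 11194 of 21474 protein-coding genes. Plasma protein genes were very high: 7 of 8 reached 1 TPM in both libraries, with medians of 239 and 287 TPM. Trf, the iron carrier, measured 3032.34 and 3053.98 TPM, Alb measured 1530.98 and 1789.35 TPM, and Ttr, the thyroxine carrier, measured 358.41 and 365.02 TPM. F9, a clotting factor gene, was the exception at 0.46 and 0.96 TPM. Every plasma protein gene of the list but F9 lay above all 6 C/EBP genes in both libraries.

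Acute-phase genes were divided. Of 11 such genes 7 reached 1 TPM in both libraries, led by the heme carrier Hpx (131.34 and 139.63 TPM), complement C3 (89.75 and 108.26) and Itih4 (25.89 and 23.92). The other 4 were at or near 0: Saa1 at 0.21 and 0.06 TPM, Saa2 at 0.05 and 0, Orm1 at 0.04 in both, and Orm2 listed at 0 in both. Saa1, Saa2, Orm1 and Orm2 encode the serum amyloid A and orosomucoid proteins that rise most in inflammation of the adult liver.

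Genes of adult liver metabolism were mostly low. Of 10, the glycogen synthase gene Gys2 (34.29 and 47.76 TPM), the urea cycle gene Arg1 (5.12 and 5.59) and the alcohol dehydrogenase gene Adh1 (3.05 and 2.75) reached 1 TPM in both libraries. The other 7 (Cps1, Pck1, Tat, Tdo2, Ugt1a1, Sds and G6pc) stayed below it, between 0.01 and 0.40 TPM, and the list's medians were 0.19 TPM in each library. The gluconeogenic G6pc was at 0.01 TPM in both, while Cebpa was at 3.58 and 4.43 TPM.

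Myeloid genes were well represented. Of 10 early myeloid genes 9 reached 1 TPM in both libraries, with medians of 16.4 and 16.7 TPM. The granule genes Mpo (249.67 and 268.39 TPM), Lyz2 (148.97 and 139.99) and Prtn3 (58.25 and 49.19) led, and Gfi1, a repressor gene that granulocyte formation needs, was below 1 TPM at 0.58 and 0.43. Csf3r, the receptor gene for G-CSF, measured 1.82 and 2.15 TPM and was named after its values were seen.

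Of 12 later neutrophil genes, which include targets of C/EBP epsilon, 9 reached 1 TPM in both libraries, with medians of 8.77 and 9.19 TPM. S100a8 (458.09 and 414.08 TPM) and S100a9 (204.67 and 185.74), which form calprotectin, and Camp (46.79 and 48.34), the cathelicidin gene, led. Itgb2l (0.75 and 0.51), Padi4 (0.33 and 0.32) and Chil3 (0.26 and 0.14) stayed below 1 TPM. Mmp8 (1.62 and 2.02) and Mmp9 (1.02 and 1.12) were the only others of the list below Cebpe, and were named after their values were seen. Of 6 eosinophil genes 4 reached 1 TPM: the granule genes Prg2 (53.99 and 53.48), Prg3 (5.83 and 5.61) and Epx (2.66 and 2.68) and the surface lectin Siglecf (2.01 and 1.83). The receptor genes Ccr3 (0.09 and 0.10) and Il5ra (0.07 and 0) were near 0.

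Partners and targets on the ATF4 and CHOP side, where Cebpg works, were high at the top of the list. Asns, which makes asparagine, measured 345.01 and 376.20 TPM, Ppp1r15a, which ends the stress response, 162.45 and 176.29 TPM, and Psat1, of serine synthesis, 148.52 and 169.74 TPM. Of 11 such genes 9 reached 1 TPM in both libraries, with medians of 6.29 and 6.25 TPM. Slc7a11, the cystine carrier gene, stayed below at 0.12 and 0.08 TPM, and Chac1, a glutathione-degrading enzyme gene, was on both sides at 1.82 and 0.92 TPM.

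Beside Cebpz, all 7 genes of nucleolar NOC proteins and of the m6A methyltransferase reached 1 TPM in both libraries. The medians of the 7 were 17.2 and 21.3 TPM. The Cebpz protein has been linked to NOC proteins and to that methyltransferase. Noc2l (61.12 and 65.18 TPM), Noc4l (60.49 and 64.28) and Wtap (56.94 and 61.39) led and were all above Cebpz. Mettl3, the catalytic subunit gene, measured 16.91 and 17.72 TPM and Noc3l 5.21 and 6.51 TPM, both named after their values were seen. Cebpz lay between them in each library.

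Genes that regulate the members or their proteins reached 1 TPM in both libraries in 14 of 15 cases, Gfi1 being the exception. Calr (458.27 and 550.11 TPM), whose protein binds C/EBP mRNAs, the translation factor gene Eif4e (83.95 and 101.44) and Myc (79.69 and 101.19), which represses Cebpa, led. Spi1, the myeloid factor PU.1 that acts with C/EBP alpha, measured 13.51 and 12.58 TPM and was named after its values were seen. Spi1 was above Cebpa and Cebpe in both libraries.

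**Figure D3:**
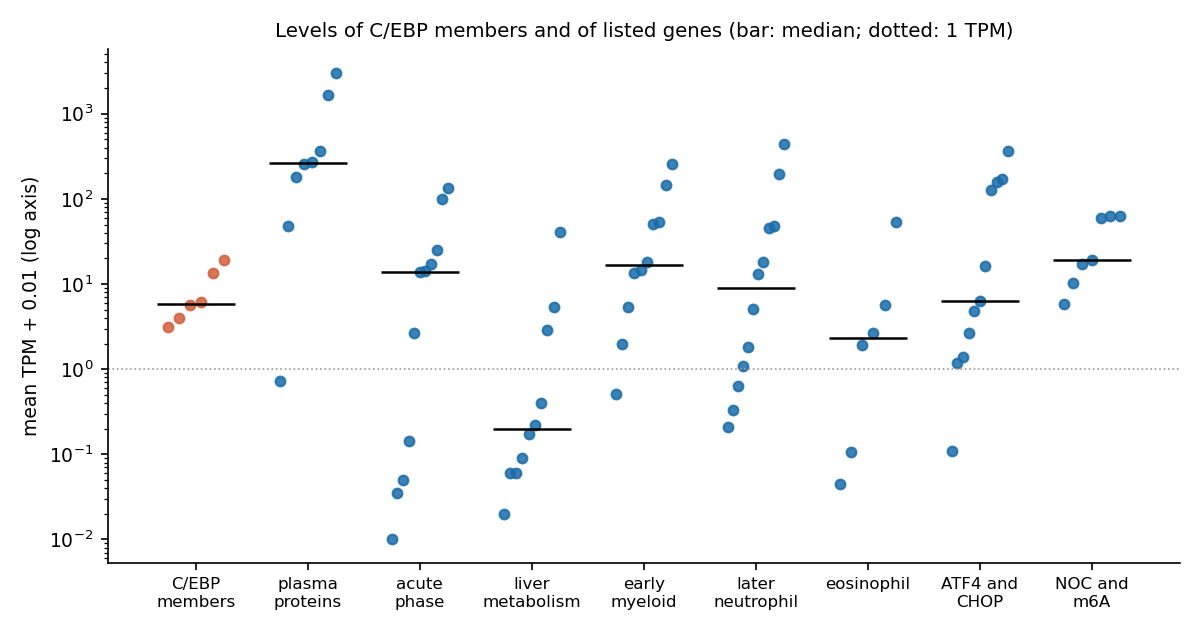
Mean TPM plus 0.01 (log axis) of each gene in the C/EBP family and in 8 lists of liver, myeloid and partner genes. Points are genes, black bars are medians and the dotted line is 1 TPM. All 6 C/EBP genes lie above the line, whereas 7 of 10 liver metabolism genes and 4 of 11 acute-phase genes lie below it.

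Promoter sequence was searched for short C/EBP-type words in the 250 bases before the start of each gene (RefSeq, GRCm38.p6, 27025 promoters, both strands). Cebpa, Cebpb and Cebpg matched an entry there, and Cebpd, Cebpe and Cebpz are named only. The words were TTGCGNAA, close to the C/EBP palindrome, its shorter part TTGCG, which every TTGCGNAA contains, the ATF4 and C/EBP composite word TGATGNAA, and GCAAT, one arm of the C/EBP site. They were chosen after the levels were seen. A match is a description of the letters and not a bound site. For each of 9 genes 30 bases are shown 5′ to 3′ on the gene's strand, with the word in capitals (on the opposite strand in Alb, Chac1 and Mpo). They set the members' own promoters beside those of listed genes described above.
Cebpa (chr7:35119097-35119126, plus strand): gtcagtgggcgTTGCGccacgatctctctc
Cebpb (chr2:167688847-167688876, plus strand): cccgtggccggGCAATgacgcgcaccgacc
C3 (chr17:57228163-57228192, minus strand): aggaaactatgTTGCGAAAttttgggcagt
Alb (chr5:90460740-90460769, plus strand): tggcaaacataCGCAAgggatttagtcaaa
Asns (chr6:7693214-7693243, minus strand): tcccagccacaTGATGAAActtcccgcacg
Chac1 (chr2:119351038-119351067, plus strand): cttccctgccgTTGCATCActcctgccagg
Camp (chr9:109849575-109849604, minus strand): agtctcatgagGCAATgagagtctgaagca
S100a9 (chr3:90695746-90695775, minus strand): tcacctgtgaaGCAATcttccccgagataa
Mpo (chr11:87793717-87793746, plus strand): gggggtcaagcATTGCtacatcttccctgt
TTGCG was found in the Cebpa promoter at -185 from the start, and in 16.4% of all promoters. GCAAT was found in the Cebpb promoter at -57, and in 25.7% of all promoters. None of the 4 words was found in the window of Cebpg. TTGCGNAA occurred in 2 of 8 acute-phase promoters (C3 and Orm2) and in 0.762% of all promoters. Of these, C3 was at 89.75 and 108.26 TPM and Orm2 was listed at 0, so the word occurred at both ends of the range of levels.

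TGATGNAA occurred in 4 of 11 promoters of the ATF4 and CHOP list (Asns, Atf3, Chac1 and Slc7a11) and in 3.91% of all promoters. Asns was the highest of that list and Slc7a11 the lowest. GCAAT occurred in 8 of 11 later neutrophil promoters (Camp, Cybb, Lcn2, Ltf, Mmp8, Ngp, S100a8 and S100a9). It occurred in 3 of 9 early myeloid promoters (Csf3r, Elane and Mpo), near the 25.7% of all promoters. In other lists it occurred in 1 of 6 plasma protein and 3 of 6 liver metabolism promoters, and TTGCG in 5 of 12 regulator promoters. TTGCGNAA occurred in 0 of 6 plasma protein, 0 of 9 early myeloid and 0 of 11 later neutrophil promoters. Genes in this paragraph were named by the word in their promoters, and no test of the counts was made.

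Between the replicates, no member moved past 1.5-fold after TMM scaling, but 4 of 6 did when the spike-ins set the scale. The share of all 15997 genes whose counts averaged 10 or more that passed this fold was 8.11% after TMM scaling, beside 0 of 6 members, and 60.2% by the spike-ins. On the log2 scale, replicate 2 over replicate 1, Cebpz stood at 0.20 (counting interval 0.11 to 0.30), Cebpa at 0.16 (-0.06 to 0.37), Cebpg at -0.00 (-0.10 to 0.10), Cebpe at -0.13 (-0.50 to 0.23), Cebpd at -0.16 (-0.44 to 0.12) and Cebpb at -0.37 (-0.61 to -0.14). Cebpb and Cebpz were the members whose interval excluded 0, in opposite directions, but Cebpz turned to -0.44 when the spike-ins set the scale. In all, 4 of 6 members were lower in replicate 2, beside 48.6% of all these genes. By deposited TPM 2 of 6 were lower, beside 26.8% of genes, and by the spike-ins, which shift every log2 ratio by -0.64, all 6 were lower. The spike-ins took 1.16% of counts in replicate 1 and 1.88% in replicate 2.

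**Figure D4:**
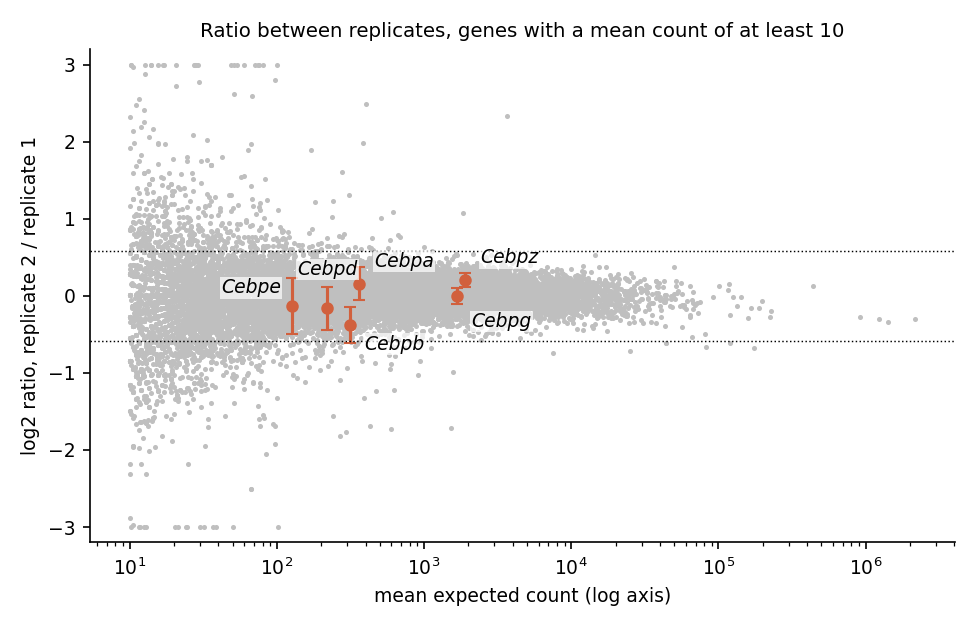
Log2 ratio of replicate 2 over replicate 1 after TMM scaling against the mean expected count (log axis) for 15997 genes in grey, drawn at the edge where beyond 3, with the 6 C/EBP genes in orange and their 95% counting intervals. Dotted lines mark 1.5-fold; all 6 C/EBP points lie between them, from -0.37 for Cebpb to 0.20 for Cebpz.

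The size of the Cebpb ratio was above that of 83.3% of these genes, and that of Cebpz above 61.8%. The Cebpg ratio was near 0 after TMM scaling, with a counting interval to either side of 0, and 0.20 by deposited TPM. The median size over genes with a count like that of Cebpb was 0.15. Base composition moved with the ratios: the transcripts of Cebpb, Cebpa and Cebpe hold 67.2%, 62.6% and 61.5% of G and C, with lower values in 99.1%, 98.2% and 97.5% of genes, and the bin of genes with the highest GC content had a median ratio of -0.16. Cebpg and Cebpz, at 43.3% and 43.4%, fell in a bin with a median of 0.09. Relative to their bin, Cebpb was at -0.21, Cebpa at 0.32, Cebpz at 0.11, Cebpe at 0.03, Cebpg at -0.09 and Cebpd at -0.12, a setting added after the data were seen. The GC content of Cebpd is that of its M21 transcript of 3746 nt, whereas its counts come from the model of 1180 nt. The part of GC content in these ratios was not tested beyond this subtraction.

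Most genes of the early myeloid and later neutrophil lists were lower in replicate 2 by TMM scaling, and fewer of them by deposited TPM. Of 10 early myeloid genes 9 were lower in replicate 2, at a median log2 ratio of -0.22, and of 12 later neutrophil genes 11 were lower, at -0.19, beside 48.6% and a median of 0.00 over all genes tested. After subtraction of the GC bins the medians were -0.23 and -0.13, with 9 and 11 genes lower. By deposited TPM 6 of 10 and 6 of 12 genes were lower, at medians of -0.07 and 0.00, beside 26.8% and a median of 0.15 over all genes. Spi1 was at -0.40 (-0.55 to -0.26) after TMM scaling. Marker lists of other blood cells also held more lower than higher genes after TMM scaling: 4 of 5 eosinophil genes (median -0.16), 4 of 5 erythroid genes (-0.14) and 5 of 6 macrophage genes (-0.07), of which 3, 3 and 2 were lower by deposited TPM. The plasma protein genes had a median of 0.09, with 3 of 8 lower. In the ATF4 and CHOP list 10 of 11 genes were lower, at a median of -0.13, 8 of 11 after the GC bins were subtracted and 5 of 11 by deposited TPM. These ratios compare 2 libraries of 1 group and not conditions.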

How the data were processed

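Total RNA of embryonic mouse liver was measured in 2 libraries of 1 group, each with a gene and a transcript table. Reads were assigned to mm10 with GENCODE M4, per the deposited readme. The aligner, the quantification tool and strand use were not given in the sources used here. The deposited expected counts are estimates in which reads that fit several genes are divided, with a posterior SD per the file headers. TPM values were normalised by the authors over all entries of a table, which include 96 spike-ins and 26248 transfer RNA entries. The effective length used was 99 nt shorter than the transcript. The deposited percent of a gene's TPM in each transcript was recomputed from TPM. A posterior mean and posterior SD of these values are other columns of the deposited tables.

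GENCODE M21 gave symbols, matched on gene ID, for 42462 of 43346 annotated genes, and its GRCm38 coordinates are used. The members and the 16 gene lists were chosen with earlier results of these data known. Named genes were the members, the 3 highest of each list by mean TPM, the list members on one side of 1 TPM in both libraries where 5 or fewer lay there, genes overlapping a member or within 5 kb, and the bZIP genes ranked next to each member, 2 on either side. Others were named after their values were seen. A gene that this rule names is not reported here.

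Levels are mean and SD over n = 2, with no p-value. Ratios between replicates are log2 of expected counts plus 0.5 after TMM scaling of rounded counts (edgeR 4.0.16, R 4.3.3), for genes averaging 10 or more counts. DESeq2 1.42.0 size factors and spike-in totals were alternatives. When 200 of 15997 genes were changed in simulated counts, true log2 ratios of -2, -1, 1 and 2 gave medians of -2.02, -0.99, 0.99 and 1.99. Intervals are exact 95% intervals (Poisson for a level, binomial for a ratio of 2 counts). Intervals and the floor of 3 counts, at most 0.0816 TPM for a member, cover counting error only, so low counts give wide intervals. GC content is that of the longest annotated transcript, known for 15887 genes, in 20 bins. Other steps used Python 3.11.15, pandas 2.3.3, numpy 2.4.6, matplotlib 3.10.9 and scipy 1.17.1. A planned comparison of protein sequences was not run, and coding bases were compared instead.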

Additional observations from a re-analysis of the deposited data

How the results depend on the processing

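With 1 sample on each side, ratios between replicates have no replicate check. A value counts as kept within its spread between replicates or counting interval, and a count of genes within 1.5 times. Of the main results under other settings 65 values were kept, 9 moved further and 1 turned, and of the single-gene values 58 were kept, 11 moved and 1 turned. By expected counts in place of TPM, Cebpa over Cebpe became 1.51, Cebpb over Cebpa turned to -0.23, Cebpb over Cebpd became 0.51 and the Cebpg-201 share 17.8%, since counts rise with transcript length. With log2(TPM + 1), Cebpg over Cebpa became 1.99. With the Cebpd length of release M21, added after the data were seen, Cebpb over Cebpd became 1.88. The share of genes past 1.5-fold between replicates was 60.2% by spike-in totals, 28.3% with no filter on low counts and 1.30% at a mean count of at least 100. By spike-in totals 4 members passed 1.5-fold and the Cebpz ratio turned to -0.44. The cause of the difference between spike-in and TMM scaling was not tested. The lists' counts at or above 0.5 or 2 TPM stayed within 1.5 times the counts given. The protein alignment and its alternative were not run. No paired analysis was possible because the labels define 1 group. Depth limits Cebpe most, with 133 and 121 counts.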
